A study of Homo sapiens with 36 samples.

Results

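The expressed ZNF genes are the 283 genes whose symbol is ZNF, a number and at most a letter from A to D, and whose mean over all 36 libraries was at least 3 TPM (a share of all transcripts corrected for transcript length). They were thus selected on their measured TPM in the same libraries that are compared below. They were drawn from 510 such rows of a table of 62710 genes, the rule itself leaving out 1 further gene, and 227 rows fell below the limit. The libraries came from H9, a human embryonic stem cell line, labelled WT, HET (RAI1 Het) or KO (RAI1 Knockout). RAI1 encodes a chromatin-associated regulator, lost in Smith-Magenis syndrome. Each genotype was sampled on days 0, 3 and 7 of doxycycline-driven expression of NGN2, a proneural factor that turns stem cells into neurons, and each of the 9 groups had 4 replicates. Cells were maintained in mTeSR Plus and differentiated in Neurobasal-A with B27, GDNF, NT3 and CultureOne, which all groups shared. The labels do not say how many clones stand behind the HET and KO lines, so a difference between lines cannot be told apart from a difference between clones.

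Most ZNF genes encode C2H2 zinc finger proteins, in which tandem fingers each read a few bases of DNA. Many carry a KRAB domain, which binds TRIM28 and through it the histone methyltransferase SETDB1, and these proteins are best known for silencing transposable elements in pluripotent cells. Their genes arose by local duplication and lie in clusters, most of them on chromosome 19. Heterochromatin marks cover many of these clusters themselves. All 283 genes were annotated as protein-coding, and 125 of them (44.17%) lay on chromosome 19. The next most frequent were chromosome 7 with 21, chromosome 16 with 19 and chromosome 1 with 16. Classes by KRAB domain or finger number were not analysed here.

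The promoters of the 7 genes called higher than WT in both edited lines on all 3 days, each on chromosome 19, are shown first: 4 that were switched on (defined below) and 3 of their neighbours or near neighbours. Each is the 250 bases before the gene's start in RefSeq on GRCh38.p14, read 5′ to 3′ on the gene's own strand, with every CG dinucleotide in capitals.
ZNF737 (chr19:20565782-20566031, minus strand): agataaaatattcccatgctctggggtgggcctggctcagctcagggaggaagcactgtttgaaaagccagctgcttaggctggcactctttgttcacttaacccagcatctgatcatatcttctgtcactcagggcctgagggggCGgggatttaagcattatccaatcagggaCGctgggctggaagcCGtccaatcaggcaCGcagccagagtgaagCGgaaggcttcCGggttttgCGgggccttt
ZNF626 (chr19:20661572-20661821, minus strand): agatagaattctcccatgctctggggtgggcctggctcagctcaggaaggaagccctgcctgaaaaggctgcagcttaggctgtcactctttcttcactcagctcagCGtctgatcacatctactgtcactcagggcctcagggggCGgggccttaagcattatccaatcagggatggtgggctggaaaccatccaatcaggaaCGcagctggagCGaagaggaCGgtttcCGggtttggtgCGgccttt
ZNF772 (chr19:57477567-57477816, minus strand): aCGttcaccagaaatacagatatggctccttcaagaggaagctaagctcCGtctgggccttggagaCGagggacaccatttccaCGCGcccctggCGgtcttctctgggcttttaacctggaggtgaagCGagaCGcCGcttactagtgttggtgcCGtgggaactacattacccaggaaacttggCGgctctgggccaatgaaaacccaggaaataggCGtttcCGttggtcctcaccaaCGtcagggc
ZNF677 (chr19:53254824-53255073, minus strand): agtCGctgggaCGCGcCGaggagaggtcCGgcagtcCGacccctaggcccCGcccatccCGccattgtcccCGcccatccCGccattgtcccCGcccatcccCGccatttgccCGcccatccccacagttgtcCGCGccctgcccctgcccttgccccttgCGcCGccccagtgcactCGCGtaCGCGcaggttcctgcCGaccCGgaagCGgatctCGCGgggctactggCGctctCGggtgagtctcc
ZNF69 (chr19:11887532-11887781, plus strand): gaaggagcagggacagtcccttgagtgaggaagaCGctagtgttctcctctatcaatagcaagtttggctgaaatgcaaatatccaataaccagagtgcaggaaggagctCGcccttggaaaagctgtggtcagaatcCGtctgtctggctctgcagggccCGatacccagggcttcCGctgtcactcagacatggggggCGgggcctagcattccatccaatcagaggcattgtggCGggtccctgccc
ZNF700 (chr19:11924857-11925106, plus strand): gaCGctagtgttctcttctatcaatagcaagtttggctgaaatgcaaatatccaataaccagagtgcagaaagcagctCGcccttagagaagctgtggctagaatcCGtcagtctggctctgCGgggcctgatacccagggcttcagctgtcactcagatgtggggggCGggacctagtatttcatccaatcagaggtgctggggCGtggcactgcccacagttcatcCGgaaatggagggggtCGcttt
ZNF441 (chr19:11766750-11766999, plus strand): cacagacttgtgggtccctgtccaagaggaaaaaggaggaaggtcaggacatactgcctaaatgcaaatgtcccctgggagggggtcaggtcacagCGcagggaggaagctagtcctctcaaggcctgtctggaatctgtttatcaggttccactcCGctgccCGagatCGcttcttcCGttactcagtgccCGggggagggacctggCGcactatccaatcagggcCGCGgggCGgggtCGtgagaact
The upstream sequences of ZNF737 and its neighbour ZNF626 were 86% identical in a global alignment, and those of ZNF69 and its neighbour ZNF700 were 69.86% identical. The other pairs among these 7 ranged from 45.45% to 56.23%. Over the 300-base window that also takes in 50 bases after the start, 248 of the 283 genes matched a RefSeq promoter. They held a median of 22 CG dinucleotides (2 to 55) against 14 over all 27305 promoters, and 92.74% of them held at least 10, against 55.97% of all promoters. Those 27305 were not limited to genes expressed in these libraries, as the 283 were. The contrast is therefore not one between ZNF genes and other expressed genes. ZNF737, ZNF626 and ZNF69 held 8 each in that window, and 11 of the matched genes held as few or fewer. ZNF772 held 16 and ZNF677 held 34, so these starts were not uniformly poor in CG.

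Expression of these genes was modest. The median of their mean levels was 6.02 TPM, 68 reached 10 TPM and 7 reached 30 TPM. The highest were ZNF207 at 65.06 TPM, a spindle assembly protein that loads BUB3 at kinetochores, ZNF638 at 45.78 TPM, an RNA-binding and HUSH-associated protein, and ZNF124 at 45.05 TPM. ZNF823 at 3.02 TPM and ZNF343 at 3.01 TPM lay just inside the limit, and ZNF653 at 2.999 TPM and ZNF506 at 2.97 TPM just outside it. Because 12 HET and 12 KO libraries entered the mean beside 12 of WT, a gene silent only in WT could enter the list and a gene silent in both edited lines mostly could not. In all, 56 of the 283 averaged less than 3 TPM over the 12 WT libraries, against 0 over the HET and 1 over the KO libraries, and 10 averaged less than 2 TPM in WT. The TPM scale itself differed between groups, because 5 short abundant RNAs (RMRP, RPPH1, RN7SK, RN7SL1 and RN7SL2) held a mean of 57.35% of all TPM in WT at day 0, 73.04% at day 3 and 81.51% at day 7. On that scale 20 of the 283 genes were under the limit in WT at day 0, but 134 at day 3 and 137 at day 7. Levels of a gene are therefore compared between libraries as CPM (counts scaled to library size with TMM factors), and only the ranks above use TPM.

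Library totals ran from 23.95 to 56.68 M counts, and the 5 short abundant RNAs took 2.84% to 27.5% of the counts. RAI1 itself was not lower in the edited lines: at day 0 WT averaged 33.5 CPM, HET 38.1 and KO 37.1, so these counts do not check the genotype labels. The pluripotency markers summed to 2430 to 5508 CPM over the 12 libraries of day 0, and the mesendoderm list stayed at or below 6.46 CPM in every library. Other lists were not near 0. Mesenchyme markers summed at day 0 to 256.7 to 1118 CPM in WT, 222.9 to 1386 in HET and 176.7 to 1456 in KO. At day 3 they summed to 219.4 to 561.8, 132 to 884.6 and 51.84 to 245.7 CPM. Neural progenitor markers summed at day 0 to 1369 to 2604, 1353 to 2872 and 1009 to 2915 CPM. The part of these lists in the differences between lines was not tested. The 12 neuronal markers rose in WT from 291.5 to 589.1 CPM at day 0 to 7391 to 15020 CPM at day 7. Replicates are labelled as biological, with nothing on separate cultures, and p-values set a group difference against the spread between these samples only. A gene was called when its adjusted p in edgeR was at most 0.05.

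During induction of WT cells the expressed ZNF genes fell and then partly recovered. Between days 0 and 3, 142 of the 283 fell and 38 rose, where 60% of all tested genes were called (28.7% fell and 31.2% rose). The median log2 fold change of the 283 was -0.42, against 0.07 over all 22268 genes tested. Between days 3 and 7 the balance turned: 110 rose and 33 fell, where 46.2% of all genes were called (23.3% rose and 22.9% fell), and the median was 0.23 against 0.01. The direction held with DESeq2 size factors and with library size alone, under which the medians were -0.47 and -0.53 for the earlier interval and 0.24 and 0.13 for the later. Library size alone moved the median of all genes to -0.04 and -0.09. The 283 genes together took 13190 ± 415 CPM (SD, n = 4) in WT at day 0, 9827 ± 416 at day 3 and 11700 ± 186 at day 7. In TPM, the scale of the selection, they summed to a mean of 3166 in WT at day 0, 1398 at day 3 and 1273 at day 7. The limit on mean TPM therefore favoured genes high at day 0, and its part in the fall was not tested. In total RNA from a whole culture, fewer cells of a type and less RNA per cell cannot be told apart. The histogram of WT changes shows the shift of the whole group.

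**Figure D1:**
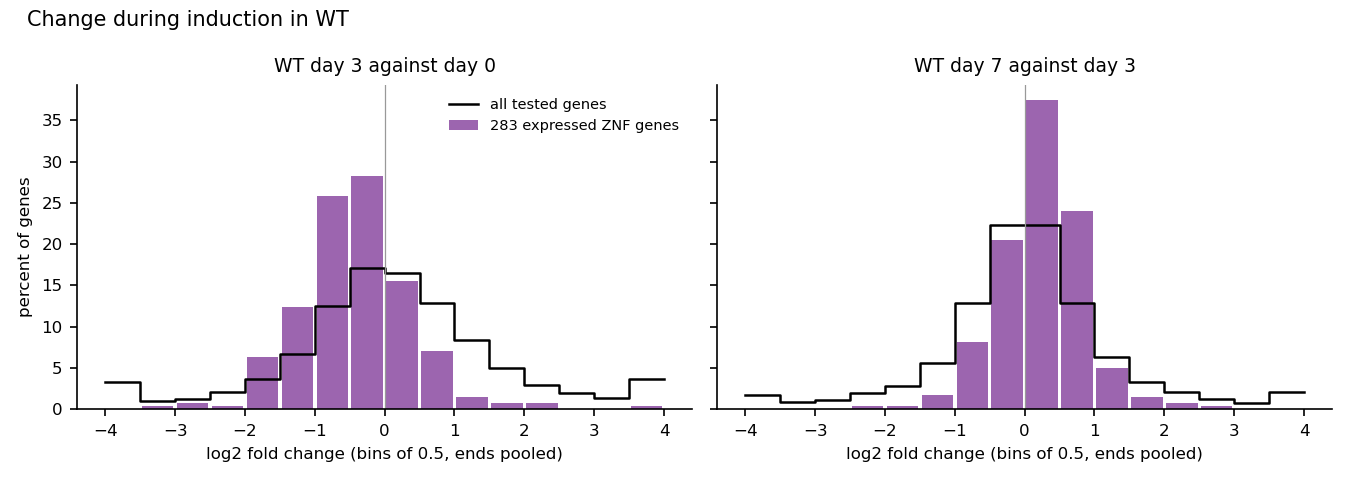
Histogram of log2 fold changes in WT between days 0 and 3 (left) and days 3 and 7 (right); bars give the percent of the 283 expressed ZNF genes per bin and the line gives the percent of all tested genes. The bars centre below 0 at left, with a median of -0.42, and above 0 at right, with a median of 0.23.

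The course was seen on chromosome 19 and elsewhere, with a larger share of genes called on chromosome 19, a difference that was not tested. Of the 125 there, 71 (56.8%) fell by day 3, against 71 of the 158 elsewhere (44.9%), and 62 (49.6%) rose again by day 7 against 48 (30.4%). The deepest fall was that of ZNF483, from 250 ± 37.3 CPM to 24.2 ± 4.18 CPM (log2 fold change -3.37 ± 0.20 SE, edgeR adjusted p = 9.109e-09). ZNF33B, a KRAB protein gene, went from 61.6 ± 1.4 to 8.74 ± 1.54 CPM and back to 26.4 ± 10.4 CPM at day 7. ZNF512B went from 54.5 ± 2.83 to 7.81 ± 3.46 CPM. Against this trend ZNF385D rose from 0.745 ± 0.291 to 44.2 ± 18.5 CPM (log2 5.87 ± 0.41, edgeR adjusted p = 3.59e-08), all 4 libraries of day 3 lying above all 4 of day 0. ZNF160 rose from 27.1 ± 2.21 to 152 ± 36.9 CPM, and ZNF516, a corepressor-complex protein, from 61.7 ± 9.07 to 307 ± 51.2 CPM. ZNF385D overlaps annotated antisense transcripts, and whether counting used strand is not given in the sources used here.

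The largest late changes in WT were of another set of genes. ZNF385A, an RNA-binding zinc finger protein that also steers p53 target choice, rose from 15.5 ± 4.1 CPM at day 3 to 89.8 ± 15.7 CPM at day 7 (log2 2.54 ± 0.21, edgeR adjusted p = 2.749e-07). ZNF382, a KRAB repressor gene, rose from 8.28 ± 2.41 to 46.4 ± 9.22 CPM, and ZNF608 from 83.3 ± 8.22 to 339 ± 41 CPM. ZNF730 fell from 27.1 ± 8.34 to 5.56 ± 2.42 CPM, ZNF695 from 13.1 ± 3.68 to 3.53 ± 1.23 CPM and ZNF519 from 32.1 ± 2.02 to 12 ± 4.29 CPM. By their mean CPM, 155 of the 283 genes were highest at day 0 in WT, 31 at day 3 and 97 at day 7. Here too the limit on mean TPM favoured genes high at day 0.

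In undifferentiated cells few of these genes differed between the lines, and those that did were mostly higher in the edited lines. In KO at day 0, 13 of the 283 were called, all higher than in WT, where 2.08% of all genes were called (1.66% higher). In HET 11 were called, 9 higher and 2 lower, where 1.63% of all genes were called (1.22% higher and 0.411% lower). The libraries of the groups did not overlap for any of these 13 and 11 calls, a state that 2.06% and 1.62% of all genes reached. Genes low in WT by TPM entered the list through the edited lines alone, so these counts are a description of who differed and support nothing about the family. With membership set by the 12 WT libraries (227 genes) only 2 were called in KO and 3 in HET. The medians over the 283 were 0.05 in KO and 0.07 in HET, against 0.01 in each over all genes. KO and HET were compared with the same WT libraries, so their agreement is not independent. Same-numbered replicates of KO and WT deviated together at day 0 and, with the replicate number as a block, 23 were called in KO, 21 higher and 2 lower.

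**Figure D2:**
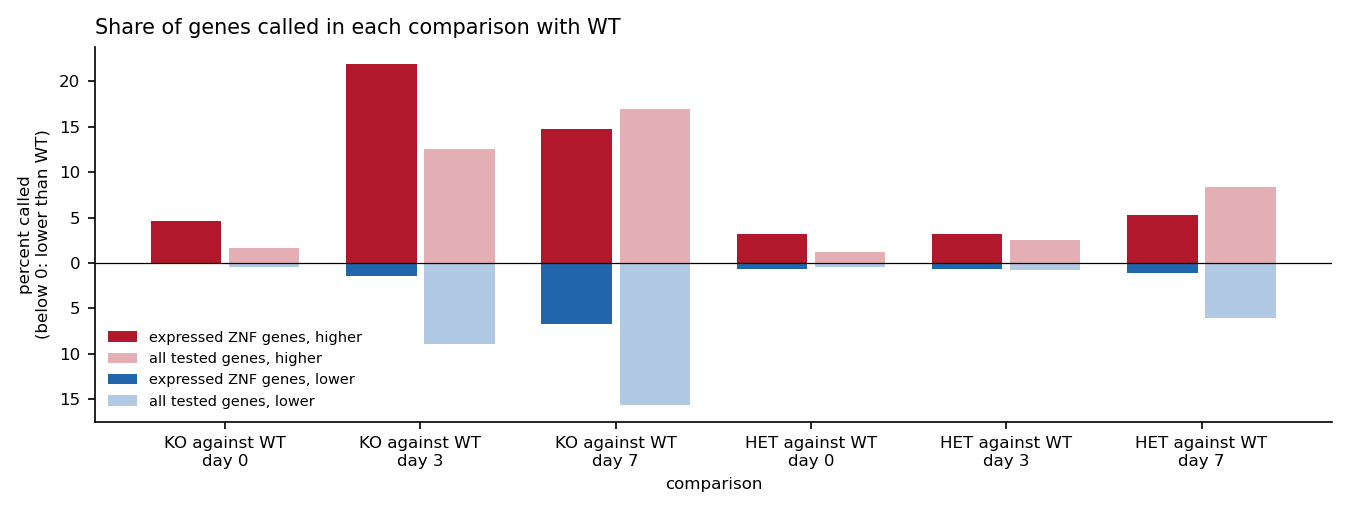
Percent of genes called in each comparison with WT, above 0 for higher and below 0 for lower; dark bars are the 283 expressed ZNF genes and pale bars all tested genes. At day 0 no expressed ZNF gene was called lower in KO, and at day 7 the dark bars are shorter than the pale ones in both lines in these fits.

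A stricter class was read as switched on: called, with no overlap between the 4 libraries of each group, and a ratio of mean CPM of at least 8. ZNF737, ZNF772 and ZNF677 met it in KO on all 3 days and ZNF737 and ZNF772 in HET on all 3 days. ZNF69 joined them in KO at days 3 and 7 and in HET at day 7, and ZNF215 in KO at day 7. No expressed ZNF gene was switched off in either line by this measure. Of all genes, 0.387% were switched on in KO at day 0, 1.47% at day 3 and 2.19% at day 7, and 0.313%, 0.38% and 0.682% in HET. The shares of all genes switched off were 0.0685%, 0.297% and 1.56% in KO and 0.0881%, 0.121% and 0.382% in HET. With membership set by the WT libraries no gene of the list was switched on in either line, since each of the 5 averaged below 3 TPM there.

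ZNF737 (chromosome 19, 20535825 to 20565809 in GRCh38, positions here and below from GENCODE 29) was close to silent in WT and expressed in both edited lines. Its CPM at day 0 was 0.385, 0.0466, 0.141 and 0 in the 4 WT libraries, 12.7, 10.9, 11.9 and 11.6 in HET and 25.6, 22.5, 19.7 and 19.9 in KO. The 3 sets did not overlap, and every KO library lay above every HET library, although KO and HET differed by log2 0.90 ± 0.31 with an edgeR adjusted p of 0.5541. At day 7 it reached 0.237 to 1.36 CPM in WT, 20.1 to 56.2 in HET and 72.4 to 90.6 in KO. The ratio of mean CPM to WT was 153, 258.7 and 127.4 in KO on days 0, 3 and 7 and 82.18, 119.1 and 70.44 in HET (at day 0 log2 7.26 ± 0.45, adjusted p = 6.413e-07 in KO and 6.36 ± 0.45, 2.233e-06 in HET, edgeR). The call was kept under every alternative tried.

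ZNF772 (chromosome 19, 57466663 to 57477570) was expressed at a low level in WT and at a similar, higher level in both edited lines. Its CPM at day 0 was 2.39, 1.42, 2.07 and 1.89 in WT, 23, 26.7, 25.5 and 26 in HET and 18.7, 25.3, 25.2 and 27.8 in KO. HET and KO overlapped, and both stood clear of WT. KO and HET differed by log2 -0.06 ± 0.14 at day 0 (edgeR adjusted p = 0.9979). The ratios to WT were 12.46, 18.21 and 19.12 in KO on days 0, 3 and 7 and 13.01, 12.48 and 17.97 in HET.

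ZNF677 (chromosome 19, 53235381 to 53254898), a KRAB gene known to be silenced by promoter methylation in several cancers, was graded across the lines. Its CPM at day 0 was 2.5, 1.47, 2.26 and 1.08 in WT, 5.92, 6.05, 5.37 and 6.18 in HET and 22, 14.3, 12.5 and 12.3 in KO. No library of a line overlapped another line, on any of the 3 days. The log2 fold change against WT was 3.08 ± 0.27 in KO at day 0, 4.56 ± 0.32 at day 3 and 3.95 ± 0.30 at day 7, and 1.70 ± 0.26, 2.14 ± 0.29 and 2.31 ± 0.29 in HET. KO exceeded HET by 1.38 ± 0.25 at day 0 (edgeR adjusted p = 0.0147), 2.41 ± 0.29 at day 3 (0.0004843) and 1.64 ± 0.27 at day 7 (0.008456). The call at day 0 was lost when HET replicate 1, 3 or 4 was left out, with an adjusted p of up to 0.07227. Between days 0 and 3 the KO difference from WT grew by 1.51 ± 0.41 (edgeR interaction, adjusted p = 0.01716).

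**Figure D3:**
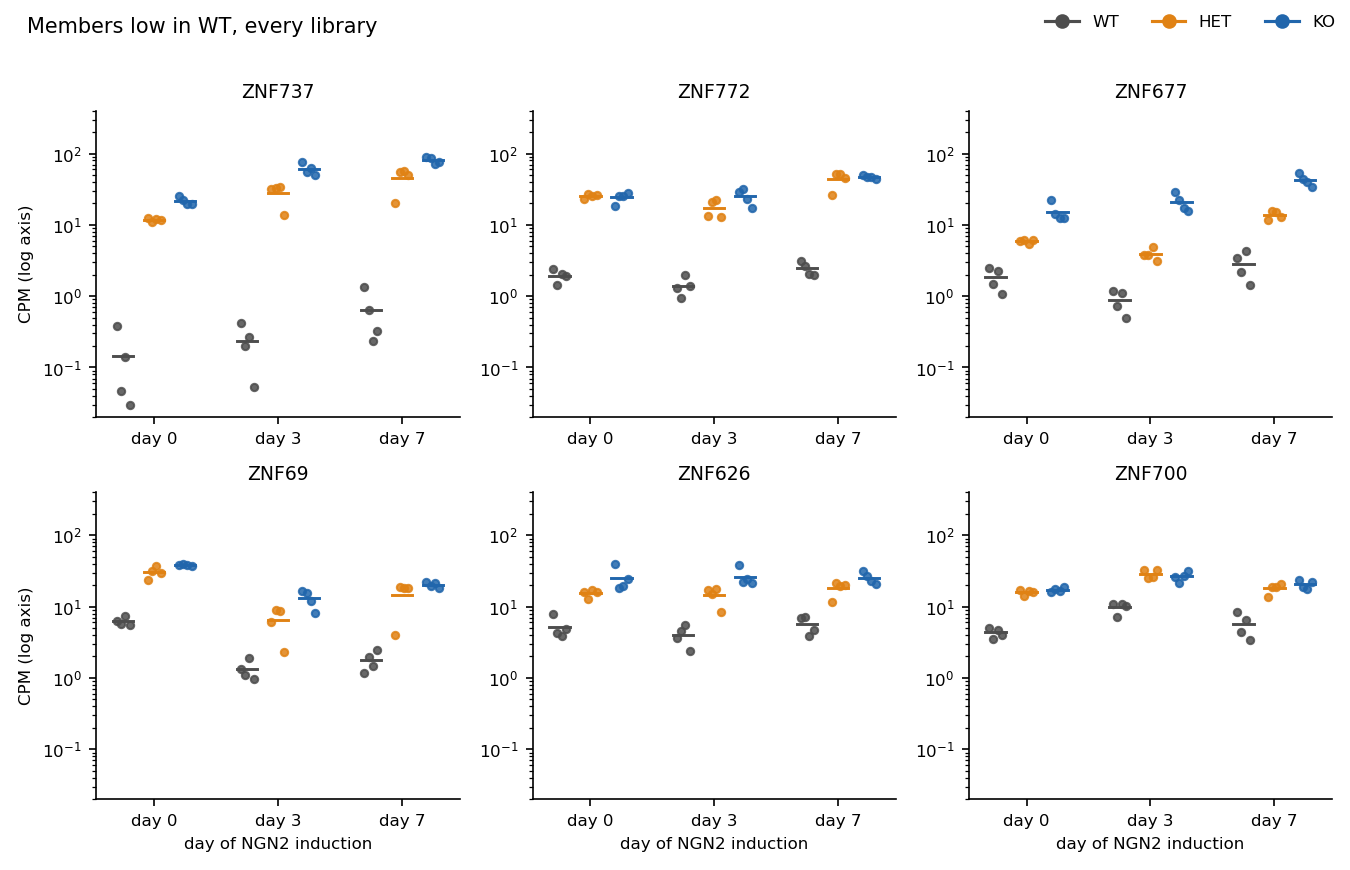
CPM on a log axis of 6 genes low in WT, by day and line; points are single libraries, bars the mean of 4, and the WT library with no ZNF737 read is drawn near the foot of the axis. ZNF737 lies at or below 1.36 CPM in every WT library and at or above 10.9 CPM in every HET and KO library, and ZNF677 steps up from WT to HET to KO.

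ZNF441 (chromosome 19, 11767000 to 11784078), ZNF69 (11887784 to 11914329) and ZNF700 (11925068 to 11950773) lie close together and were all higher than WT. ZNF69 stood at 5.44 to 7.49 CPM in WT at day 0, 23.9 to 36.8 in HET and 37.4 to 39.1 in KO. ZNF700 stood at 3.52 to 5.03, 14.3 to 17.4 and 15.8 to 18.9 CPM, and ZNF441 at 1.31 to 2.75, 4.24 to 6.08 and 4.18 to 5.28 CPM. All 3 were called in both lines on all 3 days. During induction the 3 took different courses: in WT, ZNF69 fell to 1.33 ± 0.42 CPM at day 3, while ZNF700 rose to 9.8 ± 1.86 and ZNF441 to 6.2 ± 1.25 CPM. Their differences from WT persisted across that change, at log2 3.27 ± 0.41, 1.44 ± 0.19 and 1.75 ± 0.19 in KO at day 3. ZNF626, the neighbour of ZNF737, stood at 3.82 to 7.97 CPM in WT at day 0, 13 to 17.4 in HET and 18.1 to 39.2 in KO. The expected-count model splits reads that fit more than 1 gene, and how alike the transcripts of ZNF737 and ZNF626, or of ZNF69 and ZNF700, are was not analysed here, so how their reads were apportioned is uncertain.

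Most of the genes that were higher at day 0 were also called higher later. Of the 13 called in KO at day 0, 10 were called higher on all 3 days: ZNF300, ZNF441, ZNF625, ZNF626, ZNF677, ZNF69, ZNF700, ZNF737, ZNF772 and ZNF93. Of the 9 higher in HET, 7 were called on all 3 days, namely ZNF441, ZNF626, ZNF677, ZNF69, ZNF700, ZNF737 and ZNF772. How often all genes higher at day 0 stayed higher was not computed. The limit on the mean over all days also favoured genes high in the edited lines on every day. Nothing about the family is read from these counts. ZNF93 and ZNF300, like ZNF441, were singled out after their values were seen. ZNF93, which silences some LINE-1 elements in primates, stood at 14.3 to 23.1 CPM in WT at day 0, 16.7 to 24.3 in HET and 38.9 to 83.8 in KO. HET overlapped WT for this gene, and KO exceeded HET by log2 1.28 ± 0.24 (edgeR adjusted p = 0.02213). ZNF300, a KRAB gene on chromosome 5, stood at 11 to 12.5 CPM in WT at day 0, 21.6 to 27.9 in HET and 22.5 to 29.8 in KO. The 12 neuronal markers summed to 291.5 to 589.1 CPM in WT at day 0, 416.5 to 705.4 in HET and 446.4 to 821.9 in KO, ranges that overlap. Their part in the day 0 differences was not tested.

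Most of the expressed ZNF genes called higher at day 0 lay on chromosome 19, a count that depends on how the list was selected. In KO, 11 of the 125 genes there (8.8%) were called higher against 2 of the 158 elsewhere (1.27%). In HET these were 8 (6.4%) against 1 (0.633%). Genes low in WT by TPM entered the list through the edited lines, and their part in these shares was not tested. Nothing about chromosome 19 as a whole is therefore read from the shares. Neighbouring ZNF rows, also those below the TPM limit, were joined where their starts lay at most 300 kb apart. Chromosome 19 then held 13 runs of at least 3 rows. The third run (11483427 to 12640098, from ZNF653 to ZNF791) held 25 ZNF rows, 8 of them expressed genes. Of the 24 tested there at day 0, 16 were called higher in KO and 15 in HET, and 0 were lower in either line with edgeR, with DESeq2 or at an unadjusted p under 0.05. Among the 8 expressed genes, ZNF441, ZNF69 and ZNF700 were higher in both lines and ZNF625 in KO, while ZNF627, ZNF823, ZNF564 and ZNF791 were not called at day 0. The called genes lay between ZNF441 and ZNF443, and the outer genes ZNF653, ZNF627 and ZNF823 on the left and ZNF709, ZNF564, ZNF490 and ZNF791 on the right were not called. Within that stretch ZNF136 was not called in either line. At days 3 and 7, 20 and 19 were higher in KO and 13 and 15 in HET. Of all genes, 1.66% were called higher in KO at day 0, 12.6% at day 3 and 17% at day 7. In HET these shares were 1.22%, 2.52% and 8.31%. In no other run were more than 4 ZNF rows higher at day 0 in either line. The nearest was the fourth run (19668796 to 20200490), with 4 of 8 higher in KO and 0 in HET.

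**Figure D4:**
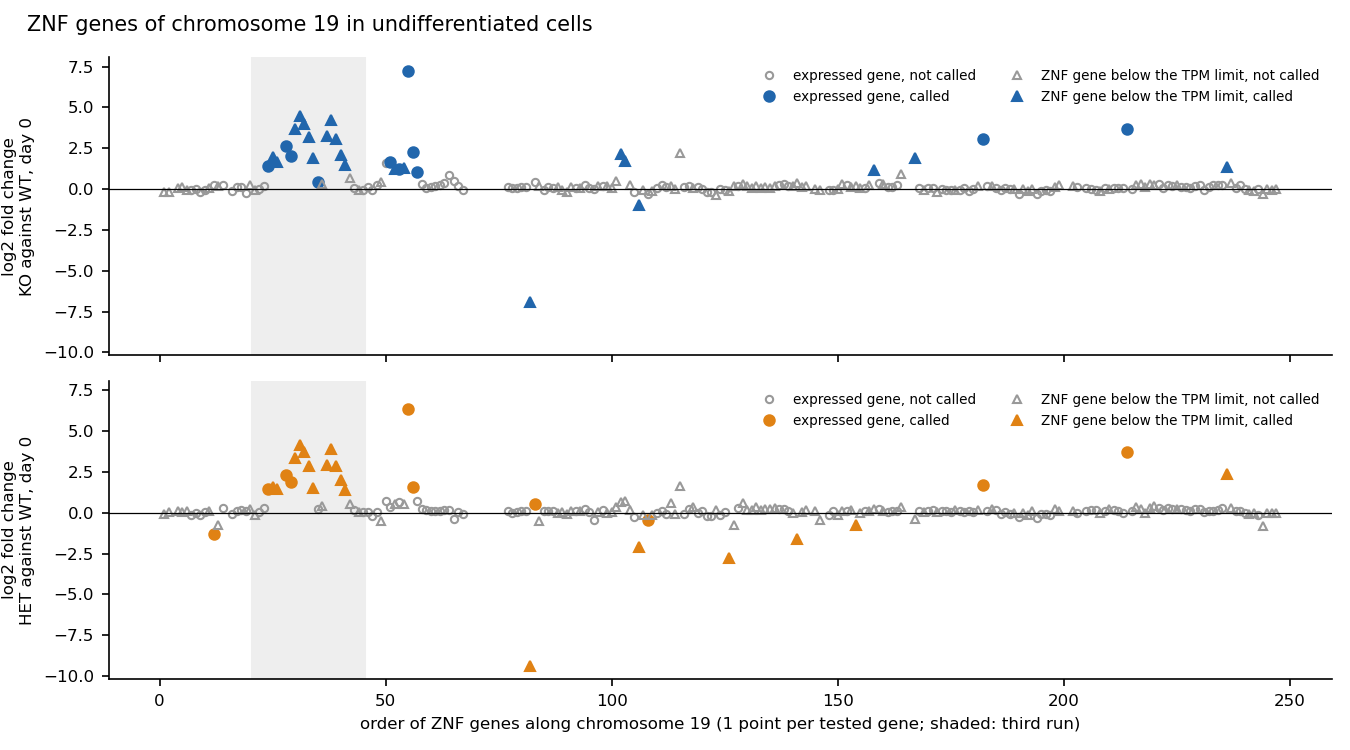
Log2 fold change of each tested ZNF gene of chromosome 19 at day 0 for KO (top) and HET (bottom) against WT, in order along the chromosome; filled points were called, circles are expressed genes and triangles rows below the TPM limit, and the shaded span is the third run. Called genes crowd in the shaded run, 16 in KO and 15 in HET, and the highest circle is ZNF737.

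The neighbours of the switched genes differed from place to place. Within 250 kb of ZNF737, the pseudogene ZNF826P was switched on as well on all 3 days in both lines, and ZNF626 was called higher in every one of these comparisons. Near ZNF69, ZNF433, ZNF433-AS1, ZNF763, ZNF844 and ZNF878 were also switched on at day 7 in both lines, and 9 of the 10 ZNF neighbours tested were called higher. Near ZNF772 none of the 26 to 28 neighbours tested was switched on any day in either line, and near ZNF677 none of the 13 to 14 tested in KO. Some were called: near ZNF772 in KO, 1 of 26 was higher and 1 lower at day 0, 8 of 27 were higher at day 3 (7 of the 18 ZNF genes among them) and 4 of 28 at day 7. In HET 0, 1 and 3 were higher. Near ZNF677 in KO, 0 of 13 were called at day 0, 2 of 14 were higher at day 3 and 3 of 14 lower at day 7. Of all genes, 1.66%, 12.6% and 17% were called higher in KO on days 0, 3 and 7, and 15.6% lower at day 7. In HET 1.22%, 2.52% and 8.31% were higher. The 4 of 28 near ZNF772 in KO at day 7 thus did not exceed the share of all genes. If the counting did not use strand, reads of ZNF433 and its antisense partner cannot be told apart.

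More switched genes lay among the ZNF rows below the TPM limit. At day 0, of 186 tested, 12 were switched on in KO and 9 in HET, and 3 and 2 were switched off. Of all genes, 0.387% were switched on in KO and 0.313% in HET, and 0.0685% and 0.0881% were switched off. Among those on in both lines on all 3 days were ZNF501, ZNF717 and ZNF433, at means of 5.86, 10.4 and 3.77 CPM in KO at day 0 against 0.0578, 0.149 and 0.17 in WT. ZNF726 was off in both lines at day 0, at 0.0165 CPM in KO and 0 in HET against 2.38 in WT. ZNF680 had a count of 0 in every KO library on every day, which, with a floor of 3 counts per library, put it at least 49.69-fold below WT at day 0, 60.42-fold at day 3 and 52.49-fold at day 7. In HET its mean was 3.21, 3.41 and 2.33 CPM. These genes were chosen after their values were seen, and their mean TPM kept them out of the 283.

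At day 3 many more of these genes were called in KO than at day 0. In KO, 66 of the 283 were called, 62 higher and 4 lower, where 21.6% of all genes were called (12.6% higher and 8.93% lower). The share of expressed ZNF genes that were higher was 21.9%, and their median log2 fold change was 0.26 against -0.05 over all genes. Of the 283, 56 averaged below the limit of 3 TPM over the WT libraries, against 1 over the KO libraries. Genes low in WT by TPM, a scale that itself differed between lines, thus entered through the edited lines. These values support nothing about the family. When membership was set by the WT libraries (227 genes), 43 were called in KO and 3 in HET, in either direction. In HET 11 were called, 9 higher and 2 lower, where 3.28% of all genes were called (2.52% higher and 0.761% lower), and the median was 0.12 against 0.02. With library size alone HET had 8 higher and 0 lower. The KO count was 41 without WT replicate 1, 43 without WT replicate 4 and 38 without KO replicate 1. With the replicate number as a block, under which same-numbered libraries deviated together, it was 127 in KO (110 higher, 17 lower) and 21 in HET (19 higher, 2 lower). The summed neuronal markers at day 3 were 1494 to 1879 CPM in WT, 2303 to 5413 in HET and 6013 to 9900 in KO, without overlap, and the proliferation markers were 1336 to 2771, 1650 to 2557 and 561.3 to 1541 CPM. The part of these markers in the differences was not tested.

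The growth of the KO difference between days 0 and 3 was called for 32 of the 283, 28 upward and 4 downward, where 8.55% of all genes were called (5.37% upward and 3.19% downward). Here too genes low in WT by TPM entered the list through the edited lines, so nothing about the family is read from this count. With library size alone it was 9 upward and 4 downward. In HET it was called for 0 by edgeR, with 8 at an unadjusted p under 0.05, where 0.271% of all genes were called. ZNF382 was higher in KO than in both other lines at day 3, but the call against HET was lost without HET replicate 1 or KO replicate 1, 2 or 3, with library size alone, with limma on TPM and with only the 2 groups in the fit. Its CPM was 26.6, 25.7, 21.5 and 18.3 in KO, 9.63, 12.1, 11.3 and 3.87 in HET and 6.74, 10.7, 9.98 and 5.73 in WT. All KO libraries lay above all others, and the growth of the difference from WT was log2 1.48 ± 0.38 (edgeR adjusted p = 0.01228). By day 7 WT had risen to 46.4 ± 9.22 CPM and KO stood at 59.4 ± 5.42. ZNF382 overlaps ZNF529 on the other strand, with which the counting may share reads. ZNF331, an imprinted zinc finger gene, went the other way: 20.4, 14.1, 13.4 and 15.6 CPM in WT at day 3 against 7.57, 9.44, 9.06 and 10.8 in KO (log2 -0.80 ± 0.18, edgeR adjusted p = 0.00691). At day 7 it stood at 10.2 ± 1.31 CPM in WT and 14.2 ± 0.842 in KO, a change of the difference by 1.26 ± 0.21 (adjusted p = 4.515e-05).

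At day 7 these genes were called in KO about as often as at day 3, with more of them lower. In KO 61 were called (21.6%), 42 higher and 19 lower, where 32.6% of all genes were called (17% higher and 15.6% lower), but 103 were called with only the KO and WT libraries in the fit. In HET 18 were called (6.36%), 15 higher and 3 lower, where 14.4% of all genes were called (8.31% higher and 6.1% lower), but 109 were called without HET replicate 1. The shares of all genes called under these alternatives were not computed, and how the shares of ZNF genes and of all genes differ was not tested. HET replicate 1 had the lowest CPM of the 4 for ZNF737, ZNF69, ZNF33B and ZNF300 and the highest for ZNF385A. The short abundant RNAs took 27.47% of its counts, against 2.837%, 4.167% and 13.35% in HET replicates 2, 3 and 4 of that day. The part of this share in the change of the count was not tested. The change of the KO difference between days 3 and 7 was called for 43, 11 upward and 32 downward, where 18.5% of all genes were called (7.6% upward and 10.9% downward). That of HET was called for 5, 2 upward and 3 downward, where 4.74% were called (2.06% upward and 2.69% downward). Summed neuronal markers were 7391 to 15020 CPM in WT, 16490 to 21850 in HET and 19080 to 25650 in KO, and proliferation markers 47.44 to 274.2, 18.89 to 40.39 and 20.37 to 24.81 CPM. Their part in the day 7 differences was not tested. At this day as well, genes low in WT by TPM entered the list through the edited lines, so the counts of calls support nothing about the family.

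ZNF215, an imprinted gene at chromosome 11, 6926404 to 7001004, was switched on in KO at day 7. At day 0 the 3 lines overlapped, at means of 16.8 to 18.6 CPM, and at day 3 KO stood at 2.32 to 4.77 CPM, below the 5.14 to 6.92 CPM of WT. At day 7 its CPM was 3.18, 2.87, 4.15 and 3.35 in WT, 8.4, 24.9, 62 and 10 in HET and 107, 59.4, 71.7 and 33.7 in KO. All edited libraries lay above all WT libraries, and the HET and KO ranges overlapped. The difference from WT between days 3 and 7 grew by log2 4.99 ± 0.55 in KO (edgeR adjusted p = 7.895e-08) and 3.38 ± 0.53 in HET (0.0001661). Of 12 genes tested within 250 kb in KO, 10 were also called higher at day 7. Among them were the olfactory receptor genes OR10A2, OR2AG1, OR2AG2 and OR6A2, which met the switched rule. Of all genes, 17% were called higher in KO at day 7 and 2.19% were switched on. ZNF215 overlaps ZNF214 and an unnamed gene, both on the other strand. If the counting did not use strand, the ZNF215 counts may include reads of those genes.

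**Figure D5:**
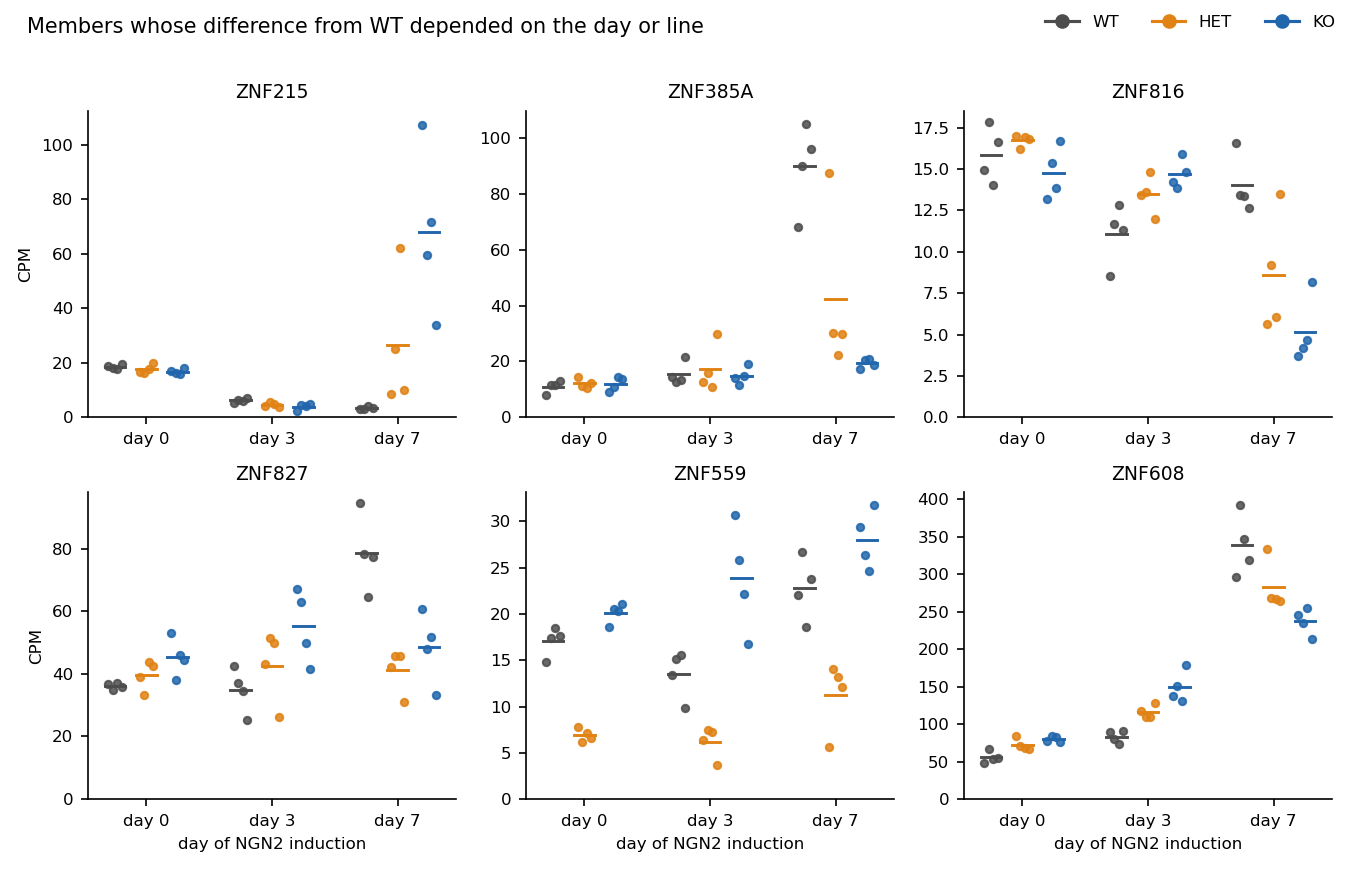
CPM of 6 genes by day and line on linear axes; points are single libraries and bars the mean of 4. ZNF215 is low in every line at day 3 and stands higher in HET and KO than in WT at day 7, ZNF385A and ZNF608 rise less in KO than in WT by day 7, and ZNF559 is low in HET on each day.

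The largest falls against WT at day 7 were those of ZNF385A and ZNF816. ZNF385A stood at 68.2, 90, 105 and 96.2 CPM in WT at day 7, 87.4, 30, 22.1 and 29.9 in HET and 17.3, 20.4, 21 and 18.9 in KO. KO lay below all WT libraries (log2 -2.21 ± 0.36, edgeR adjusted p = 0.0006592), while HET replicate 1 lay within the WT range. ZNF816 stood at 16.6, 13.4, 13.4 and 12.7 CPM in WT and 3.72, 4.18, 4.66 and 8.15 in KO (log2 -1.43 ± 0.31, adjusted p = 0.003979, edgeR). ZNF827, which recruits the NuRD complex at telomeres, stood at 64.5 to 94.5 CPM in WT, 31.2 to 45.8 in HET and 33.3 to 60.8 in KO, without overlap between WT and either line. ZNF608 was higher in KO at day 0 (log2 0.55 ± 0.11) and day 3 (0.83 ± 0.15) and lower at day 7 (-0.51 ± 0.14), and the change between days 3 and 7 was -1.36 ± 0.17 in KO (edgeR adjusted p = 9.526e-07) and -0.73 ± 0.17 in HET (0.009092). The call at day 0 was lost without WT replicate 3 or 4 or KO replicate 3, and that at day 7 without WT replicate 2 or KO replicate 4. ZNF816 overlaps a read-through transcript and ZNF385A overlaps antisense transcripts in the annotation, which the counting may share with them.

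Few of these genes were called between KO and HET, but at day 3 their number depended on the fit. At day 0, 4 of the 283 were called between them, all higher in KO, where 0.856% of all genes were called (0.524% higher): ZNF559, ZNF677, ZNF93 and ZNF429. At day 3 there were 4, where 4.35% were called (2.77% higher), and at day 7 there were 3, where 1.4% were called (0.668% higher), again all higher in KO. The day 3 count was 13 with DESeq2, 19 with the share of the 5 short abundant RNAs in the model and 38 with the replicate number as a block, although same-numbered libraries did not all deviate together here. It was 9 without KO replicate 4 and 2 without any other KO library or without HET replicate 1. The day 0 count was 2 without HET replicate 1, 3 or 4. The day 7 count was 10 with the share of the short RNAs in the model, 5 without HET replicate 3 and 1 without KO replicate 1. ZNF559 was lower in HET than in WT on all 3 days, but the call at day 3 was lost without WT replicate 1, 2 or 3 or HET replicate 1 or 3, and both later calls were lost with library size alone. Its CPM at day 0 was 14.8, 17.4, 18.5 and 17.6 in WT, 7.75, 6.22, 7.1 and 6.58 in HET and 18.7, 20.5, 20.4 and 21.1 in KO. HET lay below all other libraries, at log2 -1.28 ± 0.10 against WT (edgeR adjusted p = 6.835e-06) and KO above HET by 1.55 ± 0.10 (2.038e-06). HET stayed at 5.6 to 14.1 CPM at day 7 against 18.6 to 26.7 in WT (log2 -1.03 ± 0.25, edgeR adjusted p = 0.01492). The gene overlaps the read-through transcript ZNF559-ZNF177.

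The machinery through which KRAB zinc finger proteins silence chromatin was followed beside them. Of a list of 34 (TRIM28, SETDB1, heterochromatin proteins, NuRD subunits, histone and DNA methyltransferases and others), all were tested and 0 were called in edgeR or DESeq2 between any lines at day 0, where 2.08% of all genes were called in KO and 1.63% in HET. At an unadjusted p under 0.05 edgeR gave 0 higher and 2 lower in KO and 2 higher and 1 lower in HET against WT. In HET at day 3 there were also 0, at an unadjusted p and with DESeq2 as well. In KO at day 3, 1 was higher and 5 lower, where 21.6% of all genes were called, among them the H3K9 methyltransferases SUV39H1 (log2 -0.94 ± 0.21) and SUV39H2 (-0.83 ± 0.18) and the histone chaperone RBBP7 (-0.79 ± 0.17). In KO at day 7, 7 were higher and 3 lower, where 32.6% of all genes were called, with HDAC1 at -1.41 ± 0.19, CBX1 at 0.64 ± 0.15 and CBX5 at 1.18 ± 0.28, and in HET 2 were lower, HDAC1 and UHRF1, where 14.4% were called. In WT 18 fell and 4 rose by day 3, where 60% of all genes were called, led by DNMT3B (-3.86 ± 0.25), TRIM24 (-1.87 ± 0.15) and RESF1 (-1.46 ± 0.14), and 15 fell and 3 rose between days 3 and 7, where 46.2% were called, led by UHRF1 (-3.98 ± 0.17), SUV39H1 (-2.30 ± 0.19) and SUV39H2 (-1.46 ± 0.14). Nothing particular to the list is read from these counts.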

How the data were processed

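RNA was measured in 36 libraries, 4 for each of 3 genotypes on 3 days. It was total RNA, depleted of ribosomal RNA and sequenced as 151-base paired reads, per the labels' protocols. Per the submitters' processing notes, the tools were cutadapt 4.8, FastQC 0.11.8, MultiQC 1.20, STAR 2.7.8a and RSEM 1.3.3 with the build GRCh38. The annotation and the strand setting of the counting are not given in the sources used here. Counts of genes overlapped on the other strand, such as ZNF677, ZNF215, ZNF382 and ZNF827, may therefore include reads of the other gene. The authors deposited an expected count per gene and library, which was rounded to whole numbers for the tests. The authors deposited TPM per gene and library as well, used for the limit of 3 TPM and for levels between genes. FPKM values were not used. The count table's 4 rows for reporter or enzyme sequences, at most 0.01707% of a library's counts, were left out.

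The members and the gene lists were chosen with earlier results of these data known, and the members by TPM over the same libraries that are compared. Counts were tested with edgeR 4.0.16 in R 4.3.3 (TMM, filterByExpr, quasi-likelihood), on the 12 libraries of a day for genotypes, the 12 WT libraries for days, and all 36 for the change of a genotype difference between days. P-values were adjusted over all tested genes by Benjamini and Hochberg and a gene was called at 0.05. The SE beside a fold change was derived from the test, as the absolute log2 fold change divided by the square root of its F statistic. It is not an SE that edgeR reports. CPM used TMM factors over all 36 libraries. A mean under the level of 3 counts was set to that level in ratios. The scripts were tested on simulated data. Positions come from GENCODE 29 and promoters from RefSeq. Alternatives were DESeq2 1.42.0, limma 3.58.1 on log2(TPM + 1), other scaling, filters, covariates, memberships and ratios, and each library left out in turn.

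Genes named are those switched by at least 8 times in any comparison, the 2 largest rises and 2 largest falls among non-overlapping calls in each comparison with WT, the 3 largest rises and falls in each WT interval, the 3 highest by TPM, the 2 on either side of the limit, and up to 3 called corepressor genes per comparison. ZNF93, ZNF300, ZNF429, ZNF441, ZNF625 and the ZNF rows below the limit were named after their values were seen, as were gene names in counts. The labels name nothing that replicate numbers share. Same-numbered libraries correlated over 0.1 in all 4 pairs for KO against WT at day 0 (r 0.2898 to 0.6952) and day 3 (0.1289 to 0.588) and HET against WT at day 3 (0.1658 to 0.7957), and for these 3 comparisons the count with the replicate number as a block is printed beside the result. All fold changes and p-values come from the fits without the block.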

Additional observations from a re-analysis of the deposited data

Results flagged for a closer look

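Single libraries stood apart from the other 3 of their group in 6 of the 135 groups checked over 15 genes, where chance gives about 6.75. ZNF737 had 13.78 CPM in HET day 3 replicate 4, against 32.25 to 33.61 in the others. ZNF253 had 4.202 CPM in that library, against 16.44 to 18.92. In HET day 7 replicate 1, ZNF69 had 4.016 CPM against 18.08 to 18.7, and ZNF385A had 87.39 against 22.13 to 30.02. ZNF700 had 7.041 CPM in WT day 3 replicate 2, against 10.36 to 10.98. ZNF253 had 31.76 CPM in WT day 0 replicate 1, against 8.789 to 12.66.

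The difference between a line and WT changed between days, by edgeR's interaction test, for 32 of the 283 genes in KO from day 0 to day 3, for 43 in KO from day 3 to day 7 and for 5 in HET from day 3 to day 7. Among the genes named, the KO difference from day 0 to day 3 changed by log2 1.51 ± 0.41 for ZNF677 (adjusted p = 0.01716) and -0.78 ± 0.21 for ZNF331 (0.0156). From day 3 to day 7 it changed by 4.99 ± 0.55 for ZNF215 (edgeR adjusted p = 7.895e-08), 1.26 ± 0.21 for ZNF331 (4.515e-05), -2.16 ± 0.43 for ZNF385A (0.0004463), -1.84 ± 0.30 for ZNF816 (3.226e-05) and -1.37 ± 0.27 for ZNF827 (0.0004679). In HET it changed by 3.38 ± 0.53 for ZNF215 (0.0001661), -0.99 ± 0.30 for ZNF816 (0.04613) and -1.23 ± 0.27 for ZNF827 (0.006172) over the same days, by edgeR.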

How the results depend on the processing

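Of 132 calls of named genes, 78 were kept under every alternative that could be fitted, 52 were lost under at least 1 and 4 values changed sign, all with limma on log2(TPM + 1): ZNF559 in HET at day 7 (0.085), ZNF875 in WT from day 3 to 7 (-0.027), and ZNF385A (-0.430) and ZNF608 (-0.240) in WT from day 0 to 3. The cause was not tested. Counts below are of expressed ZNF genes called. DESeq2 gave 13 for KO against HET at day 3 and 20 for KO against WT at day 0. Library size alone gave 2 and 1 for KO against HET at days 3 and 7, and 13 for the KO change from day 0 to 3. Limma on TPM gave 7, 1 and 10 for HET at days 0, 3 and 7, 2, 1 and 0 for KO against HET, 8 and 11 for KO at days 3 and 7, and 51 in WT from day 3 to 7. With only the 2 groups compared the counts were 11 for HET at day 7, 2 and 1 for KO against HET at days 3 and 7, and 103 for KO at day 7. With the share of the 5 short abundant RNAs in the model, KO against HET had 19 at day 3 and 10 at day 7.

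With the replicate number as a block the counts were 19 and 21 for HET at days 0 and 3, 7 and 38 for KO against HET at days 0 and 3, and 23 and 127 for KO at days 0 and 3. Of these, HET at day 0 and both comparisons of KO with HET share only a number, since not every pair correlated over 0.1.

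Other memberships change which genes are counted. With every ZNF-named row there were 35, 34 and 57 for HET at days 0, 3 and 7, 13, 19 and 11 for KO against HET, 42, 117 and 123 for KO, and 282 and 250 in the WT intervals. Switched on in HET were 7 on all 3 days and 16 on any day and in KO 13 and 21, with 3 switched off on any day in each line, and between KO and HET 1 in each direction. With the 68 genes of at least 10 TPM there were 2, 2 and 0 for HET, 0, 0 and 0 for KO against HET, 1, 17 and 12 for KO and 45 and 31 in WT, with 0 switched. With the 227 genes of at least 3 TPM in WT there were 3, 3 and 6 for HET, 1 and 1 for KO against HET at days 0 and 7, and 2, 43 and 39 for KO, with 0 switched. The WT-based list, the list of every row and the alternatives for the third run of chromosome 19 were chosen after seeing the data. A ratio of 16 left 1 gene switched on all 3 days in each line. A ratio of 4 gave 5 in HET on any day, 5 in KO on all 3 days, 1 switched off in KO on any day and 1 between KO and HET.

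With each library left out in turn, the counts ranged from 10 to 13, 8 to 14 and 12 to 109 for HET at days 0, 3 and 7, 2 to 4, 2 to 9 and 1 to 5 for KO against HET, 10 to 17, 38 to 92 and 42 to 62 for KO, and 165 to 181 and 123 to 149 in the WT intervals. Switched genes ranged from 2 to 2 (all 3 days) and 2 to 4 (any day) in HET and 2 to 3 and 5 to 5 in KO, and the other switched counts stayed at 0. In the third run the ranges were 15 to 16, 17 to 20 and 17 to 19 in KO and 14 to 16, 12 to 15 and 14 to 18 in HET. The short abundant RNAs took 47.89% to 86.47% of TPM per library, which limits the TPM scale.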
